A study of Mus musculus with 6 samples.

Results

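The genes described here are 10 transcription factors that mark limb and mesenchyme identity: the T-box genes Tbx2, Tbx3, Tbx4, Tbx5, Tbx15, Tbx18 and Tbx20, and Pitx1, Prrx1 and Twist1. They were taken as every probe set, a group of short probes read as one value, whose only gene symbol on the array is one of these names. That gave 26 probe sets of 45037, standing for all 10 genes of 18193 that the array names singly. The cells were C57BL/6 mouse embryonic fibroblasts, connective tissue cells grown in serum from E13.5 embryos and collected at passage 3; how many embryos gave each culture is not given in the sources used here. One group was wild type (Zmpste24+/+) and the other Zmpste24-/-, with 3 cultures and 3 Affymetrix Mouse Genome 430 2.0 arrays in each, numbered 1 to 3 in both. Zmpste24 is the protease that matures lamin A, and the labels do not say which part of its gene was deleted.

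T-box proteins share a DNA-binding domain and act as activators or repressors of developmental genes. In the limb, Tbx5 is the selector of the forelimb, while Tbx4 and its upstream activator Pitx1 belong to the hindlimb. Each of the T-box selectors turns on Fgf10, the growth factor that starts limb outgrowth. Tbx2 and Tbx3 are repressors expressed at the limb margins, Tbx15 and Tbx18 pattern the dermis and skeleton, and Tbx20 is a factor of heart and lateral mesoderm. Prrx1 is a homeobox factor of limb bud mesenchyme, and Twist1 is a basic helix-loop-helix factor that keeps mesenchyme undifferentiated and binds E-boxes. Tbx3 and Tbx5 are neighbours on mouse chromosome 5, and Tbx2 and Tbx4 on chromosome 11, with 0 protein-coding genes annotated between the genes of each pair in RefSeq GRCm38.p6.

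RefSeq GRCm38.p6 start-site windows, 250 bases before to 50 after the start, were at hand for 5 of the 10 genes, and 4 are shown because the measurements below turn on those genes. Tbx18 (chr9:87731211-87731510, minus strand) and Twist1 (chr12:33957421-33957720, plus strand) had parallel signals over the arrays by the brighter of the Tbx18 probe sets. Prrx1 (chr1:163313601-163313900, minus strand) had probe sets that moved in opposite directions, and Tbx4 (chr11:85896515-85896814, plus strand) had the widest gap between the cultures numbered 1 among the genes with a window. Capitals mark E-boxes, the letters CANNTG, which read the same on both strands.
Tbx18: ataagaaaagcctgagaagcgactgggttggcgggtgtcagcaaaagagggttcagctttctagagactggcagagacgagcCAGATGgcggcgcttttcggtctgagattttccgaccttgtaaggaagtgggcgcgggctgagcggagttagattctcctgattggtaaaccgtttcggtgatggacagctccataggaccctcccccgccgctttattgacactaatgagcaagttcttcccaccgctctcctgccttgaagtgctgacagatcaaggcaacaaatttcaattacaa
Twist1: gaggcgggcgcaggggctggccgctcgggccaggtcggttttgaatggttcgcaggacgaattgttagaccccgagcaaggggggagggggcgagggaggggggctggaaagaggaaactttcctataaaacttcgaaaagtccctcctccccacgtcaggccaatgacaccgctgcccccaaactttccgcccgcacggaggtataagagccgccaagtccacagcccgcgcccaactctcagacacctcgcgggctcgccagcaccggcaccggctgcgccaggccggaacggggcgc
Prrx1: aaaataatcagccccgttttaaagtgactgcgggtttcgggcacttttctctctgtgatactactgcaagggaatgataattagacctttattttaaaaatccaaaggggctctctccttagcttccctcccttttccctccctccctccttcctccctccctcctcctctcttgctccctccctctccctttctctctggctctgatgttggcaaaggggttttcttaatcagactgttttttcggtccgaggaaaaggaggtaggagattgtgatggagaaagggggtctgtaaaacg
Tbx4: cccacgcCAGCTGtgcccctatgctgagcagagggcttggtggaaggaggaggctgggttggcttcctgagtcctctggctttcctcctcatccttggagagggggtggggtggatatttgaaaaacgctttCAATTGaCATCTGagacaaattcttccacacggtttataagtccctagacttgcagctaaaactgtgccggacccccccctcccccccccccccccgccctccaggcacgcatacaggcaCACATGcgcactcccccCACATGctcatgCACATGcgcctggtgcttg
The Tbx18 window held 1 E-box, 168 bases before the start (position -168), and it was CAGATG, which is CATCTG on the other strand, a form Twist1 binds. The Tbx4 window held 6 E-boxes, 1 of them CATCTG at position -111. The Twist1 and Prrx1 windows held 0. E-boxes stood in 72.31% of all 32851 RefSeq windows of this length, and CATCTG, searched on both strands and itself an E-box, in 17.15%. GGTGTG, the core of the T-box site, searched on both strands, was in 0 of these 4 windows and in 19.05% of all. A match of letters describes the window and is no evidence of binding.

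Signals are linear intensities, and every array had been scaled to the same trimmed mean of 500.003. Median signal lay between 56.3 and 70.5. Zmpste24 had a signal of 2714 ± 989 (SD, n = 3) in wild type and 258 ± 95.7 (SD, n = 3) in Zmpste24-/-, which was 10.5-fold lower, with an adjusted p of 4.02e-05 with the culture number as a block and 0.987 without it. The cultures numbered 1 stood apart in both genotypes: the 2 correlated with each other at 0.985 on the log2 scale and with the other 4 at 0.927 to 0.934. Wild-type cultures 2 and 3 had Xist, the X-inactivation RNA, at 69.3 and 43.7, against 4766 to 6669 in the other 4, and the Y-linked Eif2s3y at 531 and 1341, against at most 15.7. In pairs 2 and 3, genotype and sex therefore cannot be told apart. Within wild type, number and sex cannot be told apart where culture 1 is set against cultures 2 and 3. The Zmpste24-/- cultures all had high Xist. All 9 fibroblast markers (Col1a1, Pdgfra and others) passed the filter on low values, with summed signals of 84524 to 103565 in wild type and 81288 to 102297 in Zmpste24-/-. Macrophage markers summed to 7221 and 13029.7 in the wild-type and Zmpste24-/- cultures numbered 1 and to between 1426 and 2146 in the other 4. In such bulk samples, fewer cells of a type and less RNA per cell cannot be told apart.

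The filter left out the dimmest 40% of probe sets, those with a mean signal under 39.4 over the 6 arrays. Of the 26 probe sets, 18 passed, and they stood for 9 genes. Tbx20 was the gene with none: its 3 probe sets had mean signals of at most 33.0. The others left out were 3 of 5 for Tbx3, 1 of 2 for Tbx5 and 1 of 6 for Prrx1, with means from 2.73 to 21.3. The dimmest that passed was a Tbx4 probe set at 58.2.

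None of the 18 probe sets was called between the genotypes. With limma on log2(signal + 16), 0 of 18 had an adjusted p under 0.05, where 0% of all 27022 tested probe sets did, and 0 of 18 had an unadjusted p under 0.05 against 1.29% of all. With the culture number as a block, 0 of 18 were called against 0.0185% of all, and 2 of 18, or 11.1%, had an unadjusted p under 0.05 against 8.99% of all. Without both arrays numbered 1, 0 of 18 were called against 0.0740% of all, and 0 of 18 against 0.255% when the block was kept as well. The median log2 difference, Zmpste24-/- minus wild type, was 0.03 over the 18, with 11 higher and 7 lower, beside -0.0048 over all probe sets. The median size of the difference, whatever its sign, was 0.12 for both sets. The groups did not overlap for 1 of 18 probe sets lower in Zmpste24-/- and 1 higher, against 3.03% and 2.22% of all.

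**Figure D1:**
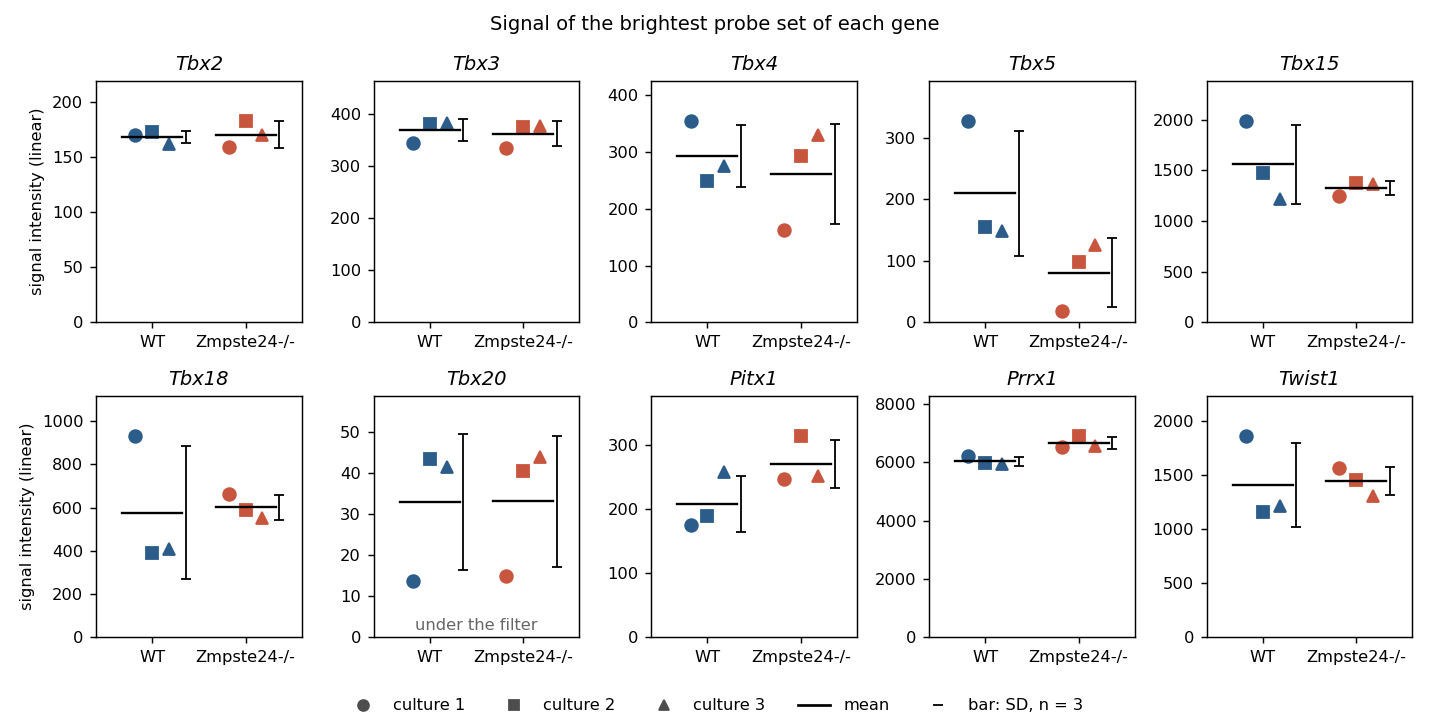
Signal intensity on a linear axis for the brightest probe set of each of the 10 genes; each point is 1 array, its shape gives the culture number, the line is the group mean and the bar the SD (n = 3). In Tbx5 all 3 Zmpste24-/- arrays lie below all wild-type arrays, in Prrx1 all 3 lie above, and in the other genes the groups overlap.

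Among the limb selectors, the forelimb factor Tbx5 had the largest difference of the 18 probe sets. Its probe set 1425695_at read 326.5, 154.4 and 147.9 in wild-type cultures 1, 2 and 3 and 18.6, 98.0 and 125.8 in Zmpste24-/- cultures 1, 2 and 3. All 3 Zmpste24-/- cultures were below all 3 wild-type cultures, and the widest gap was between the cultures numbered 1, the highest and the lowest of the 6. The wild-type signal was 17.6-fold, 1.57-fold and 1.18-fold the Zmpste24-/- signal in pairs 1, 2 and 3. The 18.6 in Zmpste24-/- culture 1 is under the signal of 39.4 used as the filter, so the size of the 17.6-fold is uncertain. By limma this probe set differed by -1.37 on the log2 scale (SE 0.58). The adjusted p was 0.99985 unblocked (0.0541 before adjustment) and 0.521 when blocked by culture number (0.0293 before adjustment). Without both arrays numbered 1 the log2 difference was -0.39 (SE 0.21, adjusted p = 0.860), without Zmpste24-/- culture 1 alone it was -0.74, and with array weights -0.41. It was negative in all 19 alternatives, from -1.76 to -0.39, and called in none, the lowest adjusted p being 0.521. Several of these alternatives cannot change the difference. As the groups did not overlap, leaving out arrays could not turn its sign. The second Tbx5 probe set, 1425694_at, was under the filter, with 30.7, 30.2 and 5.5 in wild type and 6.3, 4.5 and 28.2 in Zmpste24-/-.

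The hindlimb factor Tbx4 was also lowest in Zmpste24-/- culture 1, and here the other pairs went the opposite way. Probe set 1456033_at read 353.8, 249.4 and 275.7 in wild-type cultures 1 to 3 and 162.3, 292.2 and 329.5 in Zmpste24-/-. Probe set 1426321_at read 65.2, 48.8 and 57.0 against 26.7, 76.9 and 74.7. The pair differences were -1.05, 0.22 and 0.24 for the brighter and -0.93, 0.52 and 0.31 for the dimmer. Both gave the same directions, and the groups overlapped. The fitted differences were -0.20 (SE 0.30) and -0.03 (SE 0.35). Without both arrays numbered 1 they were 0.23 (SE 0.16, adjusted p = 0.909) and 0.42 (SE 0.27).

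Pitx1, the activator of Tbx4 in the hindlimb, had probe sets that disagreed. Its brighter one, 1449488_at, read 175.5, 190.0 and 258.4 in wild type and 246.9, 313.9 and 251.4 in Zmpste24-/-. Zmpste24-/- was higher in pairs 1 and 2 and wild type 1.03-fold higher in pair 3, and the groups overlapped. The log2 difference was 0.37 (SE 0.21 and adjusted p = 0.99985 without the block, adjusted p = 0.563 with it). The dimmer, 1419514_at, read 64.3, 218.8 and 112.9 against 71.8, 177.6 and 174.4, a difference of 0.14 (SE 0.48), and was low in the cultures numbered 1.

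Over the 6 arrays the named genes with the log2 signal most like that of Tbx5, among 13037 compared, were Cox18 (Pearson r = 0.984), Fam184a (0.980) and Nmt2 (0.977). For Pitx1 they were Cklf (0.988), Lage3 (0.983) and Id3 (0.978). With 6 arrays of which 2 stand apart, such values describe these libraries and carry no test.

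Of the brightest probe sets, those of the repressors Tbx2 and Tbx3 had the differences nearest to 0. Tbx2 read 170.1, 173.2 and 162.4 in wild type and 159.0, 182.8 and 170.4 in Zmpste24-/-; the groups overlapped, 0.02 apart on the log2 scale (SE 0.16). The brightest Tbx3 probe set, 1448029_at, read 344.3, 380.6 and 382.0 against 335.2, 374.8 and 377.2, a difference of -0.03 (SE 0.16). In both genotypes its culture 1 was the lowest, at 0.903-fold and 0.892-fold the mean of cultures 2 and 3. Probe set 1437479_x_at, whose suffix marks probes shared with other sequences, read 262.2, 204.6 and 268.4 against 293.8, 200.4 and 218.4, a difference of -0.05 (SE 0.21). Of genes reported as repressed by Tbx2 or Tbx3, the inhibitor Cdkn2a had pair differences of 1.98, -0.28 and -0.12 and Cdkn1a a fitted difference of -0.12 (SE 0.17), and neither was called between the genotypes.

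Tbx15 and Tbx18, the related genes of dermis and skeleton, were highest in wild-type culture 1. Tbx15 probe set 1418755_at read 1984, 1476 and 1215 in wild type and 1242, 1371 and 1364 in Zmpste24-/-, with a difference of -0.20 (SE 0.21). Its second probe set, 1422195_s_at, which by its suffix can also read related transcripts, had 299.6, 143.0 and 115.5 against 141.1, 126.1 and 179.8, a difference of -0.20 (SE 0.35). Both show 1 high culture in wild type and otherwise overlapping groups, and without both arrays numbered 1 the differences were 0.03 and 0.21.

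Tbx18 probe set 1429974_at read 930.5, 390.4 and 406.8 in wild type and 662.5, 587.3 and 551.6 in Zmpste24-/-. Wild-type culture 1 was above all Zmpste24-/- cultures and wild-type cultures 2 and 3 below all of them, so the pairs went -0.48, 0.57 and 0.42. The fitted difference was 0.17 (SE 0.35). Without both arrays numbered 1 it was 0.50 (SE 0.14), with an adjusted p of 0.507 (unadjusted 0.0052), and without wild-type culture 1 alone 0.57. Probe set 1449871_at read 217.2, 139.6 and 153.7 against 169.9, 151.3 and 194.0, a difference of 0.03 (SE 0.22). Tbx20 was near the bottom of the scale: its brightest probe set read 13.7, 43.4 and 41.5 in wild type and 14.8, 40.5 and 43.9 in Zmpste24-/-, so no level can be set for it.

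Prrx1 was the gene whose Zmpste24-/- cultures all lay above the wild-type ones. Its brightest probe set, 1425528_at, read 6200, 5961 and 5927 in wild type and 6538, 6895 and 6548 in Zmpste24-/-. The groups did not overlap, by a small margin: the mean in Zmpste24-/- was 110.5% of that in wild type. The log2 difference was 0.14 (SE 0.094) without a block and 0.14 (SE 0.053) with it, and the adjusted p was 0.99985 and 0.512 (unadjusted 0.0264 with the block). The other 4 tested Prrx1 probe sets had differences from 0.03 to 0.15, all with overlapping groups.

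The E-box factor Twist1 read 1861, 1161 and 1216 in wild type and 1567, 1452 and 1310 in Zmpste24-/-, a difference of 0.06 (SE 0.22). Like Tbx18 probe set 1429974_at, it was highest in wild-type culture 1, next in Zmpste24-/- culture 1, and lowest in wild-type cultures 2 and 3. The log2 signals of Twist1 and this Tbx18 probe set correlated at 0.984 over the 6 arrays, and 2 of the 13037 named genes correlated more closely with Twist1. With the dimmer Tbx18 probe set, 1449871_at, the value was 0.736, and there Zmpste24-/- culture 3 was the second highest, so the likeness holds for 1 of the 2 probe sets. As printed above, the Tbx18 window holds a CATCTG E-box, as do 17.15% of all windows, and the Twist1 window holds none. A link between the genes was not tested. With 6 arrays of which 2 stand apart, the correlations carry no test.

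**Figure D2:**
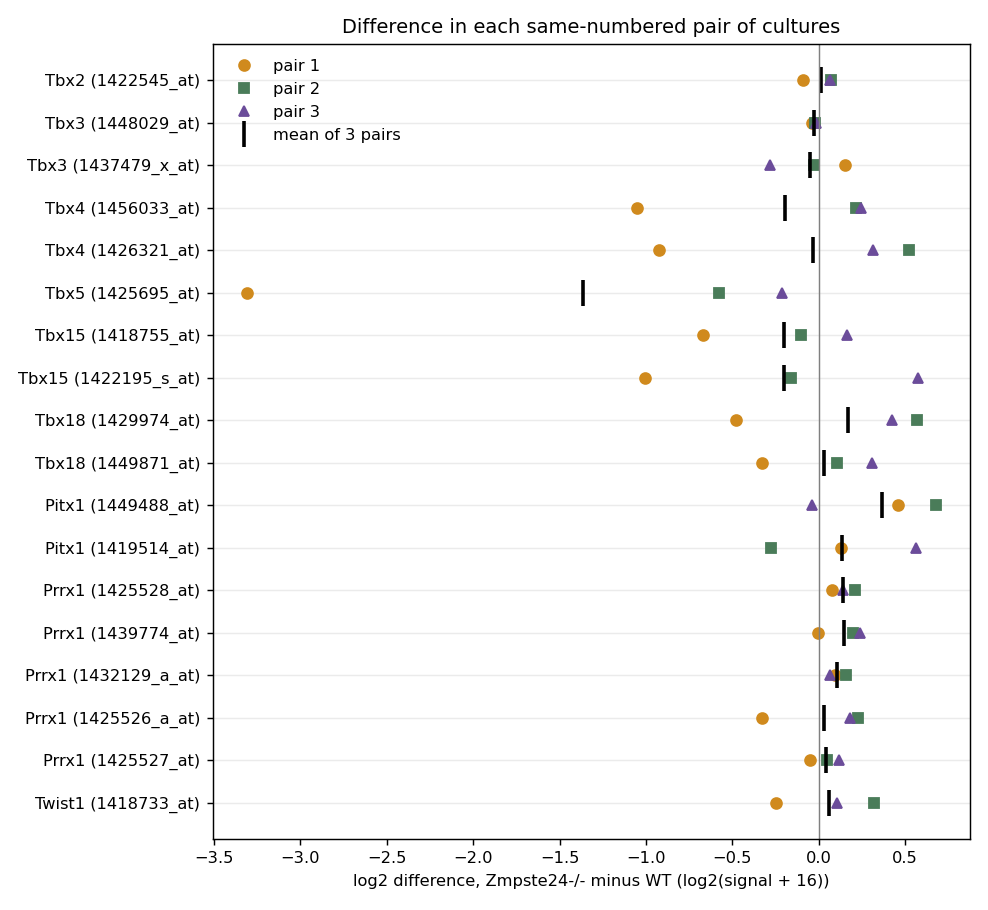
Log2 difference, Zmpste24-/- minus wild type, on the log2(signal + 16) scale, for each of the 18 probe sets that passed the filter; each point is 1 same-numbered pair of cultures and the bar is the mean of 3 pairs. Pair 1 is the lowest of the 3 in most rows, at -3.31 for Tbx5 and -1.05 and -0.93 for Tbx4.

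Directions differed between the pairs. By the brightest probe sets, 7 of 9 genes were lower in Zmpste24-/- in pair 1 (median -0.25), while 6 of 9 were higher in pair 2 (median 0.21) and 6 of 9 in pair 3 (median 0.11). Over all tested probe sets the pair medians were 0.0075, -0.029 and 0.015. Of the 18 probe sets 4, or 22.2%, went the same way in all 3 pairs, 2 lower (Tbx5 and Tbx3) and 2 higher (both Prrx1), against 31.9% of all. In pair 1 all 9 macrophage markers were higher in Zmpste24-/- (median 0.84), and in pairs 2 and 3 they were lower for 8 and 9 of 9. All 7 tested neural and glial markers were also higher in pair 1 (median 0.67). Their part in the Tbx4 and Tbx5 differences was not tested. Tbx5 and Tbx20 are also heart genes; cardiac muscle markers, with Myh6 and Myh7 under the filter, summed to 527 to 976 in wild type and 396 to 980 in Zmpste24-/-, with the lowest sum of each in culture 1. Mesothelium and epicardium markers, from sites of Tbx18 expression, summed to 256 and 316 there and to 459 to 711 in the other 4.

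Of the other T-box genes 8 were on the array and 5 passed the filter: Tbx1, Tbx6, Tbx19, Eomes and Mga, of which 0 were called with or without the block. Mga, a T-box partner of Max, read 429.7, 391.2 and 379.5 in wild type and 458.7, 438.8 and 510.9 in Zmpste24-/-. Its groups did not overlap (difference 0.22, SE 0.16 without the block, adjusted p = 0.605 with it). Eomes and Tbx1 had differences of -0.40 and -0.44 with overlapping groups.

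Limb bud signals were not called either, at 0 of 25 tested genes in either fit, with 13 higher, 12 lower and a median of 0.06. Bmp4, a bone morphogenetic protein of the limb bud, read 2719, 1823 and 1862 in wild type and 3550, 2364 and 3246 in Zmpste24-/-. It was higher in each pair, and the groups overlapped (difference 0.52, SE 0.23 without the block, adjusted p = 0.270 with it). Its antagonist Grem1 differed by 0.41 (SE 0.34) and Fgf7, a growth factor of mesenchyme, by 0.33 (SE 0.28). Fgf10, the shared target of Tbx4 and Tbx5, had pair differences of -0.03, 0.20 and -0.37, beside -3.31 for Tbx5 and -1.05 for Tbx4 in pair 1.

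Limb patterning factors were lower in 16 of 23 tested genes (median -0.13), and 0 were called. Of all 27022 tested probe sets 13808 were lower. By pair, 18, 12 and 13 of the 23 were lower in pairs 1, 2 and 3 (medians -0.28, -0.03 and -0.05). En1, the homeobox factor of the ventral limb, read 311.3, 167.3 and 171.9 in wild type and 180.5, 98.9 and 103.2 in Zmpste24-/-. It was lower in each pair, with overlapping groups (difference -0.69, SE 0.33 without the block, adjusted p = 0.282 with it). Hic1, a zinc finger factor of limb mesenchyme, differed by -0.28 (SE 0.15) and its groups did not overlap. Mesenchyme factors were higher in 24 of 38 tested genes (median 0.09), and 0 were called. By pair, 19, 17 and 28 of the 38 were higher in pairs 1, 2 and 3. Twist2, the close relative of Twist1, read 4837, 6037 and 6224 against 2984, 5197 and 4472. Twist2 differed by -0.46 (SE 0.23 without the block, adjusted p = 0.270 with it). It was lower in each pair, unlike Twist1 with its pair differences of -0.25, 0.32 and 0.11. Six2 differed by -0.55 (SE 0.22) with no overlap. Heart partners of Tbx5 and Tbx20 were lower in 5, 5 and 6 of 9 tested genes in pairs 1, 2 and 3. By the fit, 8 of 9 were lower (median -0.17), with 0 called. Mef2c, a muscle transcription factor and the exception, was higher in all 3 pairs (difference 0.32, SE 0.24 without the block, adjusted p = 0.586 with it). Hand1 differed by -0.50 (SE 0.38) and Isl1 by -0.36 (SE 0.45).

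Hox genes that set position along the trunk and limb were lower in 10 of 14 tested genes (median -0.12), with 0 called in either fit. Hoxd13, a gene of the hand and foot plate, read 1253, 1125 and 955.1 in wild type and 386.1, 1073 and 1136 in Zmpste24-/-, so 1 Zmpste24-/- culture, number 1, was low. Hoxd9 read 238.0, 182.1 and 166.8 against 139.7, 115.1 and 135.9, with no overlap. Its difference was -0.52 (SE 0.20 without the block, adjusted p = 0.443 with it). In pair 1 all 8 Hoxa and Hoxd genes were lower in Zmpste24-/- (from -1.66 to -0.14), while all 6 Hoxc genes were higher (from 0.12 to 0.55). In pair 2 all 6 Hoxc genes were lower instead (from -0.35 to -0.18, median -0.25), as were 5 of 8 Hoxa and Hoxd genes (median -0.07). In pair 3, 6 of 8 Hoxa and Hoxd genes were higher (median 0.19), and 3 of 6 Hoxc genes (median -0.05). This grouping by cluster was chosen after the values were seen and has no test. In pair 1 the wild-type signal was 3.24-fold the Zmpste24-/- signal for Hoxd13, 2.45-fold for Hoxa13 and 2.18-fold for Tbx4.

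**Figure D3:**
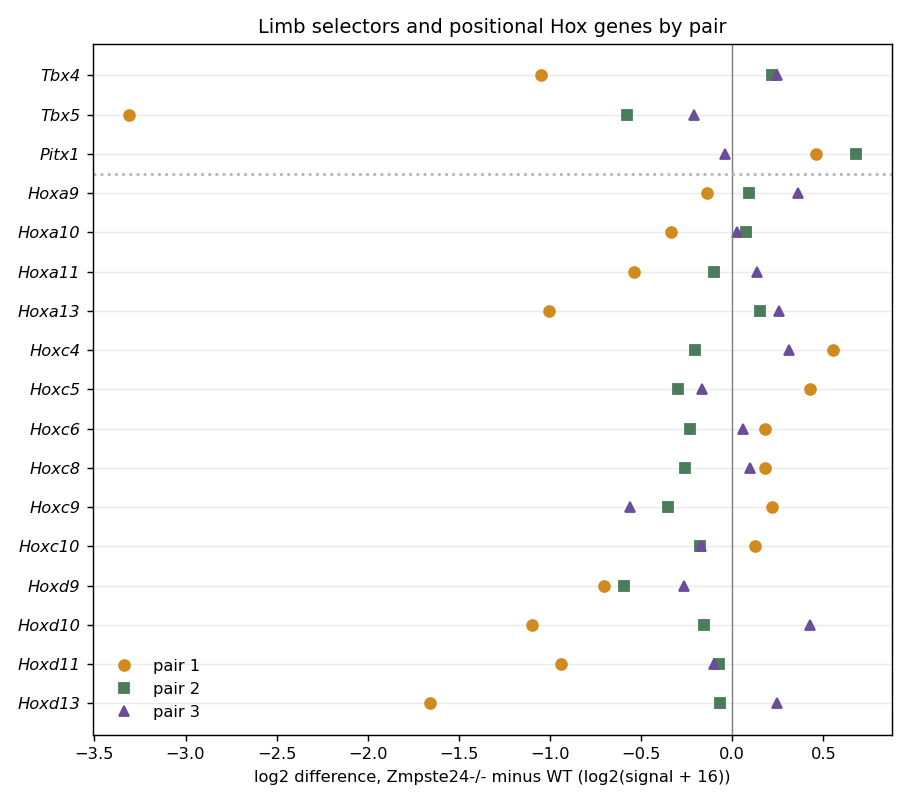
Log2 difference, Zmpste24-/- minus wild type, in each same-numbered pair, for the limb selectors Tbx4, Tbx5 and Pitx1 (top, brightest probe sets) and the 14 tested positional Hox genes. Circles for pair 1 lie left of 0 for Tbx4, Tbx5 and all 8 Hoxa and Hoxd genes and right of 0 for Pitx1 and all 6 Hoxc genes. In pair 2 all 6 Hoxc genes lie left of 0. Pairs 2 and 3 lie closer to 0 than pair 1 for most of the genes.

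The numbering of the cultures was also tested, with a limma F test of the 3 numbers across both genotypes. By it 5 of the 18 probe sets varied with culture number (adjusted p under 0.05), or 27.8%, against 41.6% of all tested probe sets. The called probe sets were 4 of Prrx1 and 1 of Pitx1. In wild type the contrast of number 1 with numbers 2 and 3 is also a contrast of sex, by Xist and Eif2s3y. Without both arrays numbered 1, 0 of 18 differed between numbers 2 and 3, against 0.0592% of all.

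The 5 Prrx1 probe sets did not move together. Probe set 1432129_a_at read 1283, 2234 and 2218 in wild type and 1371, 2498 and 2326 in Zmpste24-/- (adjusted p = 0.000274 for culture number). Culture 1 was the lowest in both genotypes, at 0.576-fold and 0.568-fold the mean of cultures 2 and 3. Probe set 1425526_a_at went the same way, with 706.0, 1058 and 1009 against 560.2, 1244 and 1149 (adjusted p = 0.00429), as did 1425527_at, with 544.3, 656.3 and 708.9 against 526.0, 680.1 and 770.9 (0.0365). The call of 1425527_at was lost with any 1 array left out (adjusted p from 0.0528 to 0.232) and without the intensity trend (0.0829), and that of 1425526_a_at without the trend (0.0516). Probe set 1439774_at went the opposite way, reading 4131, 2395 and 2630 in wild type and 4119, 2752 and 3110 in Zmpste24-/-, so that culture 1 was 1.64-fold and 1.41-fold the mean of the others (0.00102). The brightest, 1425528_at, had culture 1 at 1.04-fold and 0.973-fold and was not called (0.855). The ratio of 1432129_a_at to 1439774_at on the same array was 0.311 and 0.333 in the cultures numbered 1 and 0.748 to 0.933 in the other 4, which shows unequal change between probe sets and no relative level. Prrx1 makes transcripts with different ends, and which of them each probe set reads is not given in the sources used here.

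**Figure D4:**
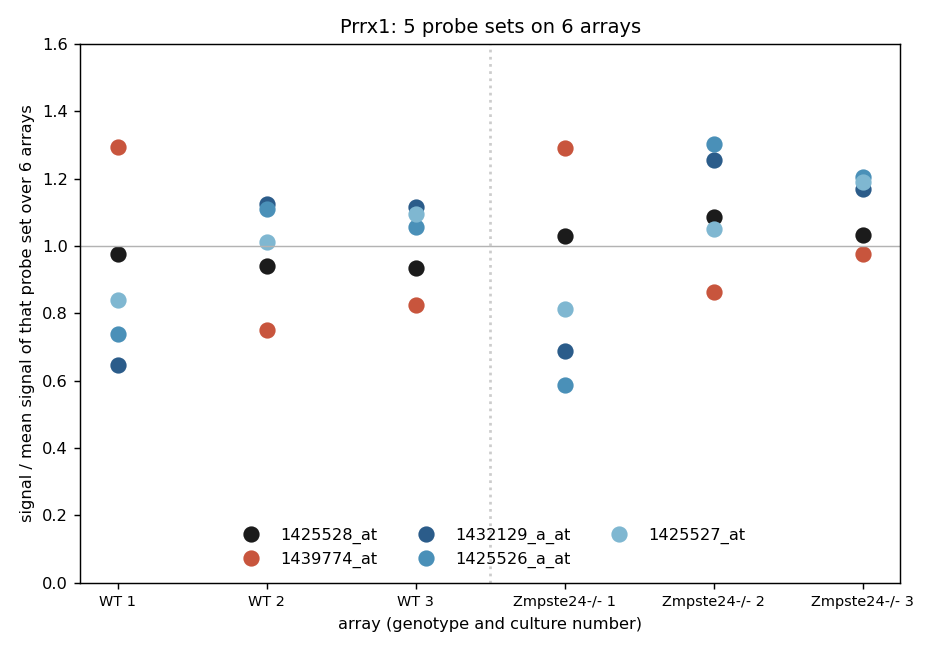
Signal of 5 Prrx1 probe sets on the 6 arrays, each divided by that probe set's own mean over the arrays (linear axis from 0; points are single arrays). In both arrays numbered 1, probe set 1439774_at lies above 1 and 1432129_a_at, 1425526_a_at and 1425527_at lie below 1, while 1425528_at stays near 1.

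Pitx1 probe set 1419514_at varied with culture number as well (adjusted p = 0.00654): culture 1 was 0.388-fold and 0.408-fold the mean of cultures 2 and 3. Its other probe set did not pass (0.507), with culture 1 at 0.783-fold and 0.874-fold. Twist1 and Tbx18 probe set 1429974_at had culture 1 above all other cultures in both genotypes. It was at 1.57-fold and 1.13-fold for Twist1 and 2.33-fold and 1.16-fold for Tbx18. They did not pass by the F test (adjusted p = 0.0592 and 0.0594). With robust fitting Twist1 passed (adjusted p = 0.0495) and this Tbx18 probe set did not (0.0671). Tbx18 probe set 1449871_at had culture 1 at 1.48-fold in wild type and 0.984-fold in Zmpste24-/-, within the range of the others (0.360). Culture 1 lay outside all other arrays for 8 of 18 probe sets, 5 low and 3 high, or 27.8% and 16.7%, against 27.2% and 31.2% of all. In the same cultures the macrophage markers were high, as given above, and all 9 varied with culture number, as did 6 of 9 fibroblast markers. Their part in the Prrx1 and Pitx1 differences was not tested.

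Tbx5, both Tbx4 probe sets, Tbx15 probe set 1418755_at and Prrx1 1425528_at were high in wild-type culture 1 and low in Zmpste24-/- culture 1, outside cultures 2 and 3 of their own genotype. These are 5 of 18 probe sets, or 27.8%, against 7.99% of all for either orientation. Probe sets of the same gene are not independent, and the shares carry no test. In wild type, culture 1 also differed from cultures 2 and 3 in Xist and Eif2s3y, so number and sex cannot be told apart there. For Prrx1 1425528_at the distances were slight, at 0.061 and -0.040 on the log2 scale. The second Tbx15 probe set and the other tested Prrx1 probe sets did not show the pattern.

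Related genes varied with culture number in part. None of the 5 other T-box genes did, while 14 of 25 limb bud signals, 8 of 23 patterning factors, 4 of 14 Hox genes and 18 of 38 mesenchyme factors passed, as did 2 of 9 heart partners and 4 of 6 reported targets. Their shares were 56%, 34.8%, 28.6%, 47.4%, 22.2% and 66.7%, against 41.6% of all tested probe sets. Snai2, Tcf4 and Zeb1, factors of the mesenchymal state, were higher in the cultures numbered 1, by 0.76, 0.87 and 0.94 in wild type. Shox2, a homeobox gene of the proximal limb, was higher by 1.22 in wild type and 0.82 in Zmpste24-/-. Etv4, a target of FGF signals, was lower by -2.98 and -3.28. Hoxc8 and Hoxc6 were higher by 1.02 and 0.88 in wild type.

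**Figure D5:**
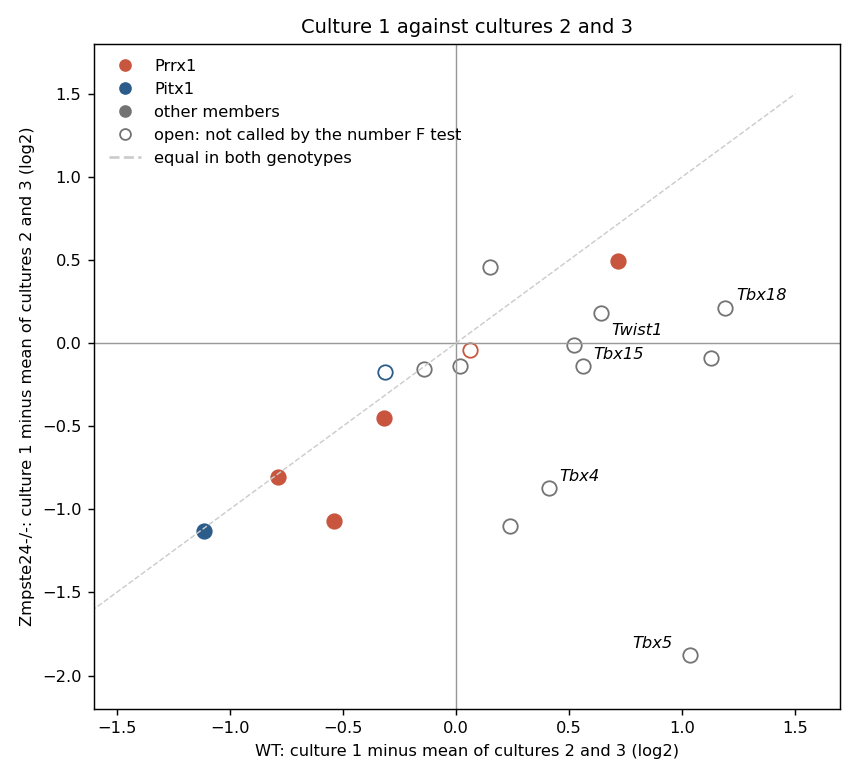
Culture 1 minus the mean of cultures 2 and 3, on the log2(signal + 16) scale, in wild type (horizontal) and in Zmpste24-/- (vertical), for the 18 tested probe sets; filled points were called by the F test of culture number, open points were not. The 4 called Prrx1 and 1 called Pitx1 probe sets lie on the same side of 0 in both genotypes, while Tbx5 (1.04 and -1.88) and Tbx4 (0.41 and -0.87) lie on opposite sides.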

How the data were processed

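RNA of 6 fibroblast cultures was measured on 1 array each. The deposited table holds linear intensity values that the authors obtained, per the submitters' processing notes, with GCOS, in a version not given in the sources used here. The trimmed mean, without 2% at each end, is 500.003 on the arrays, so a change in total RNA per cell cannot be seen. Of 45101 probe sets 64 are controls and were left out; 34945 have 1 symbol, 932 several and 9160 have none here.

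Values were analysed as log2(signal + 16), so fold changes of dim genes are understated. The dimmest 40% of probe sets by mean over all arrays were left out. Genotypes were tested in R 4.3.3 with limma 3.58.1 (eBayes, trend on intensity, unblocked). Benjamini-Hochberg adjustment ran over all 27022 probe sets, and calls are at 0.05. An SE is limma's, from the unblocked fit unless stated. The code was run on simulated data with known shifts, placed in number 2 for the test of culture number. That run is no measure of power on these arrays, where number 1 stands apart. The labels speak of pairs. Cultures of one number deviated together from their groups (r = 0.83, 0.59 and 0.57), but across numbers 2 and 3 the values were nearly as high (0.55 and 0.49), so these values set number 1 apart and do not show pairing of 2 and 3. The replicate block is given too. Culture number was tested with limma's F test in the fit of genotype and number. Every member is named; from each gene list up to 4 genes could be named by smallest blocked p for genotype and up to 3 by number, of which the text gives some. Members and lists were chosen with earlier results of these data known. A gene is represented by its brightest probe set unless stated. Alternatives were pseudocounts of 1 and 64, no filter or 60%, quantile normalization, median centring, no trend, robust fitting, array weights, the block, and arrays left out. The 3 arrays per group limit the precision.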

Additional observations from a re-analysis of the deposited data

Results flagged for a closer look

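In 5 of the 18 probe sets, or 27.8%, culture 1 lay outside cultures 2 and 3 on opposite sides in the genotypes. The share of all tested probe sets was 7.99%, for either orientation. All 5 were high in wild type and low in Zmpste24-/-. Probe sets of 1 gene are not independent, and these shares carry no test. The log2 distance from culture 1 to the mean of cultures 2 and 3 was 1.04 in wild type and -1.88 in Zmpste24-/- for Tbx5. For Tbx4 it was 0.41 and -0.87 by the brighter probe set and 0.24 and -1.10 by the dimmer. For Tbx15 it was 0.56 and -0.14 by probe set 1418755_at, and for Prrx1 0.061 and -0.040 by 1425528_at. The difference between the genotypes was not tested, since each rests on 1 culture per genotype. The wild-type distance also runs between cultures that differ in Xist and Eif2s3y, so number and sex cannot be told apart in it. The second Tbx15 probe set and the other tested Prrx1 probe sets did not show this pattern.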

How the results depend on the processing

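Counts of probe sets called between the genotypes were 0 by limma without a block. They were 1 with array weights, 5 with the replicate block, 20 without both arrays numbered 1 and 69 with the replicate block and without those arrays (the last added after seeing the data), and 0 to 4 when 1 array was left out. In each of these, 0 of the members' probe sets were called, so the replicate block changed no call of a member between the genotypes, while it did that of Zmpste24. Without both arrays numbered 1, genotype and sex cannot be told apart, so the calls made there cannot be assigned to either. The number of the members' probe sets that varied with culture number was 3 without the intensity trend and 4 to 9 when 1 array was left out (9 without Zmpste24-/- replicate 1). It was 6 with robust fitting, where Twist1 was called as well. It was 0 without both arrays numbered 1, where 16 of all probe sets were called. The arrays left out in that last test were chosen after seeing the data. No member was called between the genotypes at any setting, and signs of the uncalled differences turned in 14 cases of 171. Many of the 171 could not turn, since changing the filter, the trend, the block or robust fitting leaves a fitted difference as it was. Tbx4 turned to 0.23 with array weights and to 0.23 without both arrays numbered 1 (with or without the block), and ranged from -0.384 to 0.0935 with 1 array left out. Tbx15 turned to 0.0298 without both arrays numbered 1, with or without the block. With 1 array left out, Tbx2 ranged from -0.0305 to 0.0614, Tbx3 from -0.0722 to 0.0276, Tbx18 from -0.0413 to 0.569 and Twist1 from -0.0639 to 0.273. The signs of Tbx5, Pitx1 and Prrx1 did not turn. For Tbx5 and the brightest Prrx1 probe set the groups did not overlap, so leaving out arrays could not turn the sign. Tbx20 could not be tested with the filter, and signals under it set no order.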
